A study of Mus musculus with 24 samples.

Results

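The response of proliferating C2C12 myoblasts to low oxygen was measured by comparing RNA-seq libraries of cells held at 2% oxygen (hypoxia) with libraries of cells held at 21% oxygen (normoxia), all in growth medium. Genes were kept when their mean FPKM was at least 1 in either group, which left 11728 of the 24043 genes in the deposited table. FPKM, a count of fragments scaled for transcript length and library size, allows levels of different genes to be compared. C2C12 is an established mouse myoblast line, a subclone of cells grown out of injured adult muscle, so the groups sample 1 cell line and not several animals. Both groups were unmodified cells kept subconfluent in DMEM with 10% fetal bovine serum and antibiotics. Oxygen is the only difference between them that the sources used here give. The time spent at 2% oxygen is not given in the sources used here. Each group had a library A and a library B, and 4 of the 24 samples of the series therefore enter the comparison. The series also has 4 RNA libraries in differentiation medium with 2% horse serum, used in 1 closing comparison below, and chromatin libraries that were not analysed here. The filter on levels divided genes of close values, with 2810442I21Rik just inside at 1.00 FPKM and E330009J07Rik just outside at 0.996 FPKM in the higher group. In all, 871 members had a higher group mean of 1 to 2 FPKM and 667 genes outside reached 0.5 to 1 FPKM.

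Cells sense oxygen mainly through prolyl hydroxylases, encoded by Egln1 to Egln3, which use oxygen to mark hypoxia-inducible factor (HIF) alpha subunits for capture by the VHL ubiquitin ligase. When oxygen falls, HIF alpha proteins escape destruction, pair with ARNT and bind short DNA motifs near genes for glucose uptake, glycolysis, pH control, mitophagy, blood vessel growth and collagen processing. HIF is controlled chiefly at the protein level, so the RNA of its own subunits need not follow its activity. In muscle precursor cells, low oxygen is also known for its effects on MyoD, on entry into differentiation and on mitochondrial respiration.

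Each of the 4 libraries had between 14917 and 15247 genes above 0. Their FPKM summed to between 480018 and 534167, and their relative depth, read from the smallest steps between low values, ranged from 0.772 in normoxic library A to 1 in normoxic library B. The absolute depth is unknown, so no limit was put on values listed at 0. Across the tested genes the replicates correlated with Pearson's r of 0.970 in normoxia and 0.980 in hypoxia, and 70 and 55 genes differed by more than 2-fold between the replicates of each group. Nothing in the labels says that A and B were separate cultures, so p-values measure the spread between these libraries, which may be technical.

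Hypoxia was associated with a wide shift in RNA levels, with large rises among known HIF targets and large falls among muscle and sterol genes. Of 11728 genes tested with limma on log2(FPKM + 1), 6079 (51.8%) had a Benjamini-Hochberg adjusted p under 0.05. Of these, 1949 (16.6%) were higher and 4130 (35.2%) lower at 2% oxygen. These shares of all genes are the background for the counts of each gene list below. The count of 6079 genes came to 3695 without hypoxic library A and 3741 without hypoxic library B. The direction of the small changes depended on how the libraries were scaled. With FPKM as deposited, 32.1% of called genes were higher. Median-of-ratios scaling gave 2816 higher (24% of genes) and 2838 lower (24.2%), so that 49.8% of called genes were higher, and upper-quartile scaling gave 2826 higher (24.1%) and 2886 lower (24.6%), or 49.5% higher. The median gene changed by -0.15 as deposited and by 0.00 and 0.01 after these scalings, and a change is to be set against that offset. With a change of at least 1 on the log2(FPKM + 1) scale required as well, 1304 genes (11.1%) passed, 544 (4.64%) higher and 760 (6.48%) lower, and 1302 of the 1304 were called in the same direction on both other scales. The larger changes split into 671 higher (5.72%) and 530 lower (4.52%) with median-of-ratios scaling, and into 671 higher (5.72%) and 531 lower (4.53%) with upper-quartile scaling. Large changes were the smaller part, with 47 genes higher and 21 lower by at least 3 on this scale, beside 630 higher and 1418 lower by less than 0.5. Adding 1 before taking logs shrinks the change of a gene expressed at about 1 FPKM or less, and a fold is given below where both group means reach 1 FPKM.

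**Figure D1:**
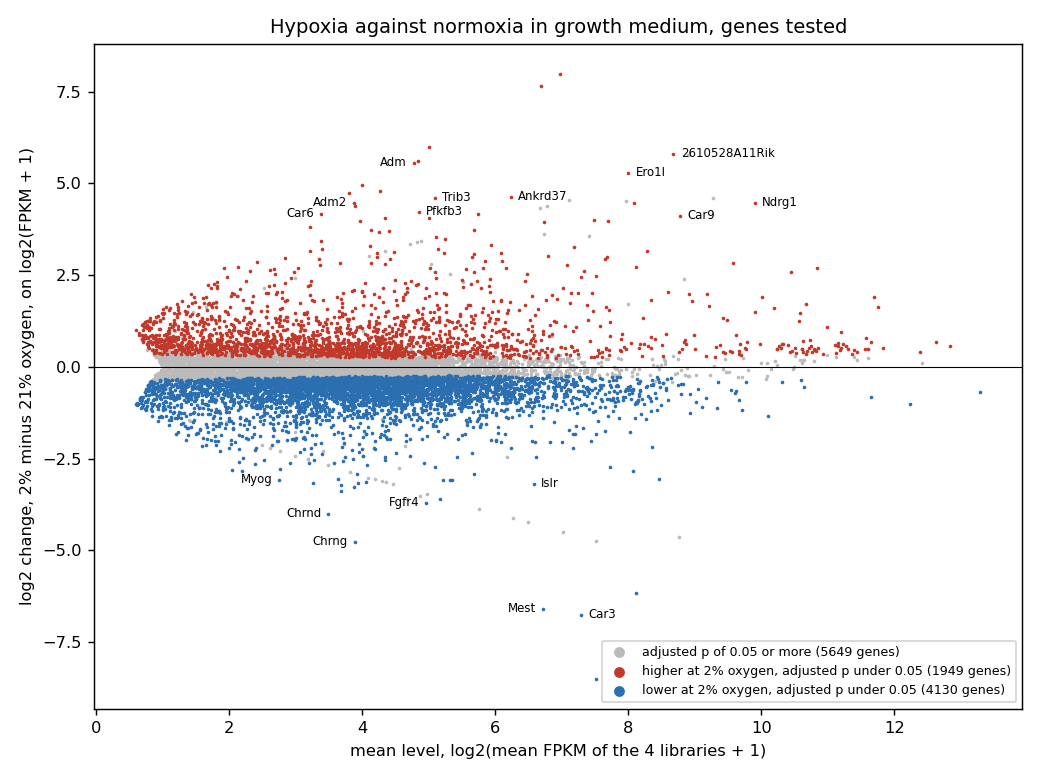
Change with hypoxia (log2, 2% minus 21% oxygen, on log2(FPKM + 1)) against mean level for the 11728 genes tested, 1 point per gene, red for the 1949 called higher and blue for the 4130 called lower. Named points reach from 2610528A11Rik at 5.81 to Car3 at -6.76, and the unnamed red points above 2610528A11Rik and the blue point below Car3 are microRNA genes, which are very short.

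The libraries carried the marks of dividing myoblasts, less strongly in hypoxia. All 7 proliferation markers were present in the 4 libraries and were lower in hypoxia past the threshold. The calls of Pcna (-0.24, limma adjusted p 0.0495) and Top2a (-0.47, adjusted p 0.0333) lay close to it, and the median gene changed by -0.15. That of Mki67 (adjusted p 0.0307) was lost after either other scaling. Mki67, the Ki-67 antigen of cycling cells, was at 15.1 and 21.3 FPKM in normoxic libraries A and B and at 12.6 and 9.38 in hypoxic libraries A and B. For comparison, normoxic cells in differentiation medium had 3.17 and 3.48 FPKM. Of the 8 myoblast markers, 7 were lower in hypoxia and vimentin (Vim) was higher. The 8 myotube markers summed to 33.6 and 25.8 FPKM in normoxia and 3.59 and 3.96 in hypoxia, beside 8954 and 8842 in normoxic differentiation medium. That small myotube signal moved with the muscle genes described below, which include some of the same genes, and its part in their change was not tested. In bulk libraries fewer cells of a type and less RNA per cell cannot be told apart. Markers of other cell types were mostly low, with some exceptions. Of 9 immune markers 8 were under 1 FPKM in all 4 libraries and 5 were at 0, and all 7 endothelial markers were under 1 FPKM. Of 8 adipocyte markers 5 were at 0, and of 8 bone and cartilage markers 5 were under 1 FPKM. The adipocyte factor Cebpa was at 19.1 and 17.2 FPKM in normoxia and 8.20 and 9.12 in hypoxia, and the bone factor Runx2 at 15.7 and 16.8 and at 8.36 and 8.12 FPKM. Both were called lower, as was Lpl (4.95 and 5.07 FPKM against 2.59 and 2.48), while Sox9 (13.8 to 17.4 FPKM over the 4 libraries) and Pparg (4.48 to 5.37 FPKM) did not pass. Of the 7 epithelial markers 2 passed the filter and both were higher. Keratin 19 (Krt19) was at 6.32 and 6.11 FPKM in normoxia and 91.0 and 97.6 in hypoxia, and keratin 14 (Krt14) at 1.41 and 1.27 and at 2.16 and 2.29 FPKM (adjusted p 0.0143), whereas Epcam, Cdh1, Krt8, Krt18 and Cldn4 were under 1 FPKM or at 0 throughout.

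Among the oxygen-sensing genes the hydroxylase genes Egln1 and Egln3 rose strongly, and the HIF subunit genes did not rise. Of 14 tested members, 4 (28.6%) rose, 5 (35.7%) fell and 5 did not pass, beside 16.6% higher and 35.2% lower over all genes. The lower share was thus near that of all genes, and the median change was -0.20 beside -0.15 for all genes. After median-of-ratios scaling 4 were higher and 2 lower. Egln1, the main prolyl hydroxylase acting on HIF, was at 15.1 and 15.3 FPKM in normoxia and 119.3 and 120.3 in hypoxia, a 7.87-fold rise (log2 change 2.90 ± 0.08 SE, limma adjusted p 9.39e-06). Egln3, the hydroxylase most often used as a readout of HIF activity, was at 25.8 and 27.4 FPKM and at 264 and 262, a 9.91-fold rise (adjusted p 7.67e-06). The hypoxic libraries of both genes lay far above the normoxic ones, with no overlap. With 2 libraries per group lack of overlap says little by itself, here and below, since Col1a1 also lacked it and did not pass (limma adjusted p 0.170). Genes named as the largest rises and falls, Car9 among them, were chosen for having no overlap. Egln2, the remaining paralogue, had 32.5 and 25.8 FPKM in normoxia and 23.9 and 23.5 in hypoxia and did not pass (adjusted p 0.108). As a result Egln3 made up 44.3% and 51.5% of the summed Egln3 and Egln2 level in normoxia and 91.7% and 91.8% in hypoxia. The substrate receptor Vhl rose from 10.7 and 10.2 FPKM to 16.9 and 16.2 FPKM (1.58-fold, adjusted p 0.00242). Cited2, an inhibitor that competes with HIF for its coactivators, rose 2.22-fold from 72.3 and 66.8 FPKM to 158.4 and 151.2 FPKM. Hif1a, the alpha subunit, had 31.2 and 43.1 FPKM in normoxia and 24.8 and 22.0 in hypoxia. The 2 hypoxic values lay below both normoxic ones, and the difference passed on the deposited scale (-0.63 ± 0.16, adjusted p 0.0198) but not after either other scaling (-0.46 on both) or without hypoxic library B (-0.55). Its partner Arnt had 25.4 and 25.996 FPKM in normoxia and 22.5 and 21.9 in hypoxia (adjusted p 0.0815). Epas1 and Hif3a, the other alpha subunits, were under the filter on levels. The 5 lower calls of this list came to 3 without hypoxic library A and 2 without hypoxic library B.

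Genes for glucose uptake, glycolysis and lactate export rose nearly as a block. Of 28 tested members, 22 (78.6%) rose, 20 of them by at least 1 on the log2(FPKM + 1) scale, 2 fell and 4 did not pass, with a median change of 1.69. The share of the summed FPKM that these genes took was 1.085% and 1.098% in normoxia and 3.16% and 3.23% in hypoxia. The glucose transporter gene Slc2a1 was at 47.6 and 42.9 FPKM in normoxia and 348 and 360 in hypoxia, 7.82-fold higher (2.94 ± 0.09, adjusted p 1.43e-05). Hk2, a hexokinase that traps glucose in the cell, was at 5.80 and 6.01 FPKM and at 61.7 and 63.5, 10.6-fold higher (3.20 ± 0.08, adjusted p 9.03e-06). Pfkfb3, which makes the fructose bisphosphate that activates phosphofructokinase, was at 1.97 and 1.94 FPKM and at 52.7 and 54.5, 27.4-fold higher (4.21 ± 0.09, adjusted p 5.36e-06). In all 3 genes the replicates differed by far less than the groups did. Lower in the pathway, Pgk1, phosphoglycerate kinase, was at 489 FPKM in both normoxic libraries and at 3132 and 3205 in hypoxia (6.48-fold). Ldha, which reduces pyruvate to lactate, was at 532 and 481 FPKM and at 1383 and 1445 (2.79-fold). The lactate exporter Slc16a3 rose 5.95-fold, from 26.5 and 24.1 FPKM to 147 and 154 FPKM. Pdk1, the kinase that shuts pyruvate dehydrogenase, rose 4.59-fold, from 18.2 and 20.4 FPKM to 90.1 and 87.2 FPKM.

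Isoforms of the same enzyme responded to different degrees. Of the phosphofructokinase genes Pfkp rose 5.35-fold and Pfkl 3.65-fold, while the muscle isoform Pfkm had 37.1 and 36.4 FPKM in normoxia and 36.8 and 36.1 in hypoxia (adjusted p 0.906). Pfkp accordingly went from 30.3% and 31.2% of the Pfkp and Pfkm sum to 70.03% and 71.1%. Pfkfb3 went from 22.2% and 23.2% of its sum with Pfkfb4 to 93.4% and 92.5%, since Pfkfb4 fell from 6.90 and 6.44 FPKM to 3.75 and 4.45 FPKM. The 2 lower calls of the glycolysis list, Pfkfb4 and Pdk2, numbered 0 without hypoxic library A. Hk2 went from 10.95% and 11.7% of the hexokinase sum with Hk1 to 25.6% and 25.5%, although Hk1 rose as well (3.94-fold). Eno1, an enolase gene, rose 3.01-fold, but it shares reads with its near copy Eno1b, and the division of reads between them is uncertain: Eno1 had 199.8 and 389 FPKM in the normoxic libraries and Eno1b 776 and 420.

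The genes that build glycogen rose with those that burn glucose. Of 13 tested glycogen genes 7 (53.8%) rose, each by at least 1 on the log2 scale, 3 (23.1%) fell and 3 did not pass (median change 1.81). Over all genes 16.6% were higher and 35.2% lower. Glycogen synthase (Gys1) was at 18.98 and 17.3 FPKM in normoxia and 120.3 and 124.6 in hypoxia, 6.75-fold higher (2.69 ± 0.09, adjusted p 1.73e-05). The branching enzyme Gbe1 rose 10.8-fold, from 3.14 and 4.01 FPKM to 39.1 and 38.4 FPKM. Ppp1r3c, which targets a phosphatase to glycogen and so activates the synthase, rose 11.01-fold, from 1.25 and 1.14 FPKM to 13.9 and 12.5 FPKM. The liver isoform of glycogen phosphorylase, Pygl, was under 1 FPKM in both normoxic libraries and at 10.2 and 9.83 FPKM in hypoxia (log2 change 2.67 ± 0.12). The brain and muscle isoforms Pygb and Pygm were called lower. Phosphoglucomutase genes divided in the same way, with Pgm2 3.55-fold higher and Pgm1 1.79-fold lower.

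HIF target genes for pH control, mitophagy and cell stress rose almost without exception. Of 21 tested members 19 (90.5%) rose, 16 of them by at least 1 on the log2 scale, and none fell, with a median change of 2.01. Fundc1 and Klf10 did not pass. Their summed share of the FPKM was 0.285% and 0.283% in normoxia and 1.67% and 1.64% in hypoxia. Car9, a surface carbonic anhydrase that helps keep the cell interior from turning acid, was at 43.9 and 50.7 FPKM in normoxia and 814 and 853 in hypoxia (17.6-fold, adjusted p 7.67e-06). The related Car12 was at 1.11 and 1.88 FPKM and at 33.2 and 29.8 (21.0-fold). Neither gene showed overlap between the groups. Ndrg1, a differentiation and stress gene, was at 80.7 and 83.8 FPKM in normoxia and at 1806 and 1869 in hypoxia (22.3-fold, adjusted p 4.29e-06), and was among the most abundant transcripts of the hypoxic cells. Ankrd37, an ankyrin-repeat gene, was at 4.98 and 4.80 FPKM and at 143.7 and 142.8 (29.3-fold). The oxidase gene Ero1l, which passes electrons from disulfide formation in the endoplasmic reticulum to oxygen, was at 10.5 and 13.1 FPKM and at 537 and 462 (42.4-fold, adjusted p 7.67e-06). On the log2(FPKM + 1) scale these 3 genes (4.46, 4.61 and 5.29) rose more than any member of the glycolysis list, where Pfkfb3 (4.21) rose most. As a ratio the rise of Pfkfb3 (27.4-fold) was larger than that of Ndrg1. The mitophagy receptor gene Bnip3 rose 9.10-fold, from 56.2 and 66.5 FPKM to 589 and 528 FPKM, and its relative Bnip3l rose 3.28-fold. Higd1a, a mitochondrial survival protein, rose 16.6-fold to 199.6 and 197.9 FPKM, and the adenylate kinase gene Ak4 rose 19.3-fold to 34.4 and 34.1 FPKM. Ddit4, an inhibitor of the growth kinase mTORC1, rose 4.08-fold to 228 and 223 FPKM.

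**Figure D2:**
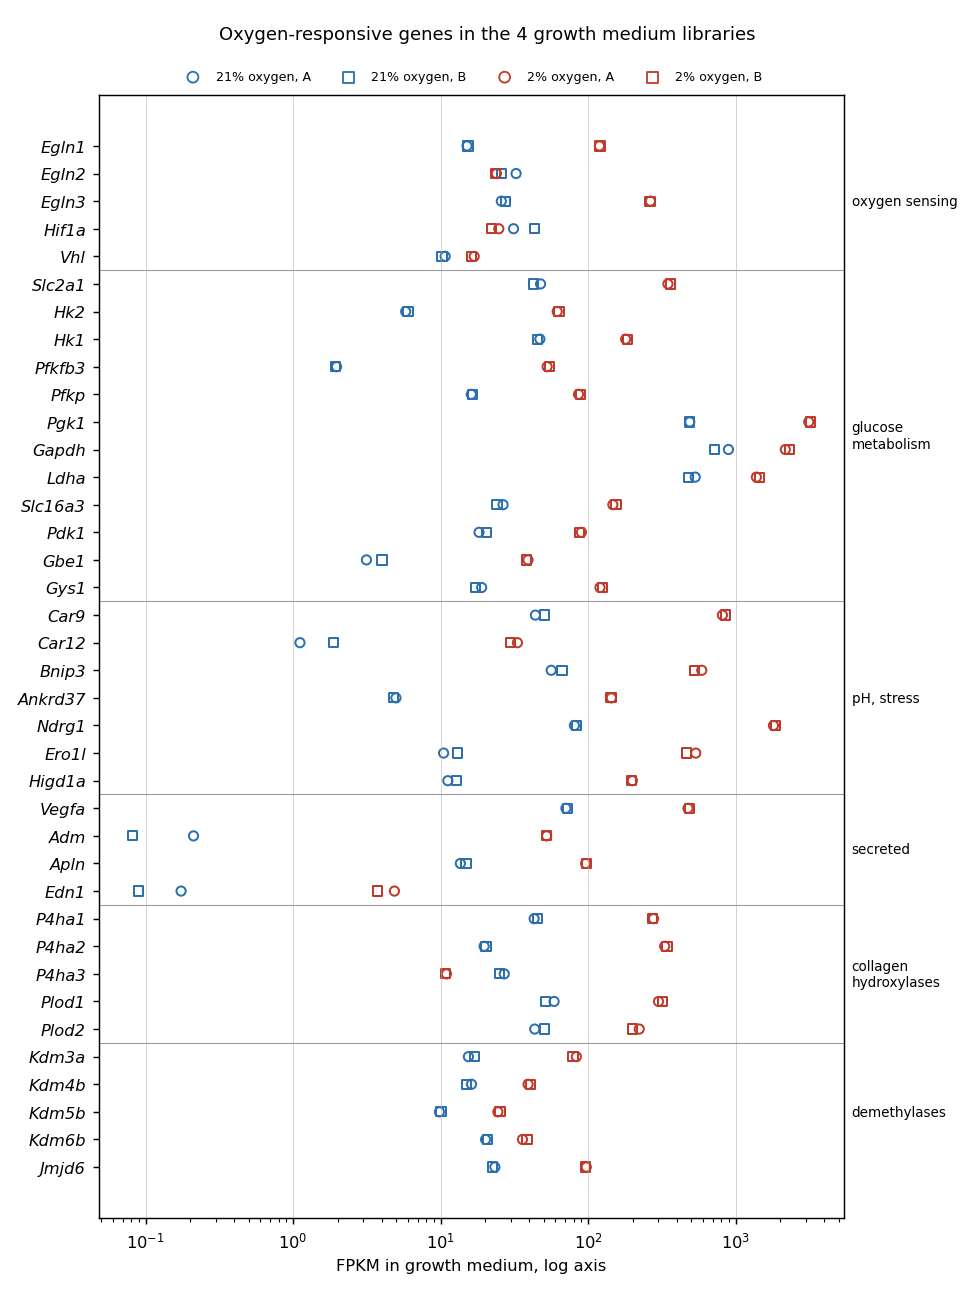
FPKM (log axis) of oxygen-sensing genes and of known oxygen-responsive genes in each of the 4 growth medium libraries, circles for A and squares for B, blue for 21% and red for 2% oxygen. The red pair lies to the right of the blue pair for most genes, as for Ndrg1 at 1806 and 1869 against 80.7 and 83.8, and to the left for Hif1a and for P4ha3 at 10.9 and 10.8 against 27.02 and 25.1.

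Promoters of the genes with the largest rises were searched for the core of the hypoxia response element, since this is the motif that HIF binds. RefSeq promoter windows of the GRCm38.p6 build, 250 bases before to 50 bases after each start site, were found by symbol or synonym for 9272 of the 11728 genes. The letters searched were ACGTG on either strand, which read CACGT on the printed strand when the match is on the other one. The motif also occurs inside the E-box CACGTG bound by other factor families. The stretches below end at or before the start site and show genes whose values carry the response, with the matched letters in capitals. They are printed 5′ to 3′ on the strand of the gene. Car9 lies at chr4:43506968-43507025 on the plus strand, P4ha1 at chr10:59323240-59323295 on the plus strand, Ankrd37 at chr8:45999851-45999896 on the minus strand and Slc2a1 at chr4:119108669-119108744 on the plus strand. Ldha lies at chr7:46845716-46845803 on the plus strand, Bnip3 at chr7:138909569-138909654 on the minus strand and Egln1 at chr8:124949278-124949362 on the minus strand. Ero1l, named Ero1a in RefSeq, lies at chr14:45318591-45318675 on the minus strand and Pfkfb3 at chr2:11553945-11554029 on the minus strand. The deposited table was made on mm9, so these coordinates belong to the RefSeq build alone.
Car9: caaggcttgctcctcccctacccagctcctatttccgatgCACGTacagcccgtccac
P4ha1: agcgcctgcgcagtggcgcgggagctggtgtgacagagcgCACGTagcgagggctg
Ankrd37: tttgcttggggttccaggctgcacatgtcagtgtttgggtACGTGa
Slc2a1: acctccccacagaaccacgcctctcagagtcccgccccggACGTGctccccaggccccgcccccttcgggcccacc
Ldha: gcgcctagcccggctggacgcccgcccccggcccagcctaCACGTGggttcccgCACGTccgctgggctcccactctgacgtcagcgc
Bnip3: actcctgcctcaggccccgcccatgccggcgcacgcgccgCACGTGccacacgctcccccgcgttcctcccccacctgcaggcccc
Egln1: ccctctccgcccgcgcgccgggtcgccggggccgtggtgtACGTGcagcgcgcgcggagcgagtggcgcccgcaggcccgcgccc
Ero1l: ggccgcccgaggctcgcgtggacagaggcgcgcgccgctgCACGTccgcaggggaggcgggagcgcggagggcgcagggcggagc
Pfkfb3: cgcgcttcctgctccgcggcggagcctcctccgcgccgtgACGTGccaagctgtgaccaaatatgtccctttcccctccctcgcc
In these stretches the match nearest to the start began 18 bases before it in Car9, 16 in P4ha1, 6 in Ankrd37, 36 in Slc2a1 and 34 in Ldha. In Egln1, Ero1l and Pfkfb3 it began 68, 63 and 60 bases before the start, and in Bnip3, where it forms an E-box, 107 bases before. In all, 24 genes that rose were searched, of which 22 had a promoter window and 16 a match before the start. The matched genes not printed here had theirs farther away, from 148 bases before the start in Car6 to 250 in Rps27. Another promoter of Pfkfb3 held an E-box 52 bases before its start, and another promoter of Ldha held no match. No match was present in this window of Adm, Aire, Trib3, Adm2, Pdk1 or Kdm3a, which says only that these letters are not in these bases.

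The share of promoters with the motif followed the size of the rise. Among genes higher by at least 3 on the log2 scale, 22 of 42 promoters (52.4%) held it, and among those higher by 2 to 3, 40 of 90 (44.4%). The share was 29.4% for rises of 1 to 2 and 27.9% for smaller rises, and 1532 of the 5674 promoters of genes that did not pass held the motif. Genes called lower had it in 23.3%, 21.6% and 19.1% of promoters for falls under 1, of 1 to 2 and of at least 2. Of the 11817 promoters of all tested genes 25.96% held the motif, and 19.6% did among all 32851 promoters that RefSeq gives. The motif contains a CG pair, so CG-rich promoters hold it more often. Among promoters with at least 16 CG pairs the shares were 69.6% and 58.3% for the largest 2 classes of rise, 30.4% for genes that did not pass and 22.7% for the largest falls. These shares describe letters in a window and are not counts of bound sites.

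**Figure D3:**
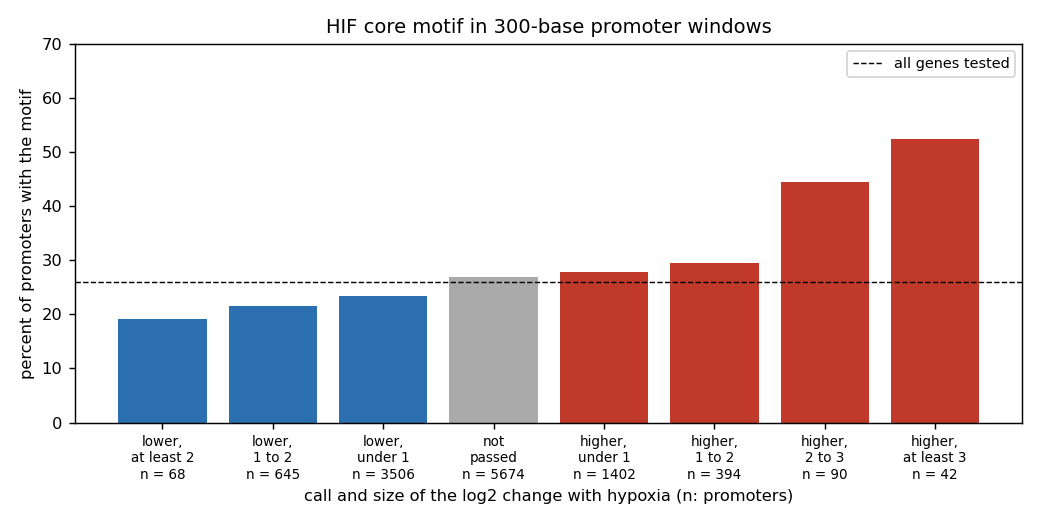
Percent of 300-base RefSeq promoter windows that hold ACGTG on either strand (vertical axis), by call and size of the log2 change with hypoxia (horizontal axis, n gives promoters), with the dashed line at 25.96% for all tested genes. The bars climb from 19.1% for the largest falls to 52.4% for the largest rises.

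Secreted factors of vessel growth and vessel tone rose in the main, with some exceptions. Of 20 tested members 12 (60%) rose, 3 (15%) fell and 5 did not pass (median change 0.75), beside 16.6% higher and 35.2% lower over all genes. Vascular endothelial growth factor A (Vegfa) was at 70.7 and 72.2 FPKM in normoxia and 476 and 485 in hypoxia (6.72-fold, adjusted p 1.23e-05). Apelin (Apln), a vascular peptide, was at 13.6 and 14.9 FPKM and at 96.2 and 97.1 (6.79-fold). Adrenomedullin (Adm), a vessel-relaxing peptide, was at 0.211 and 0.0815 FPKM in normoxia and at 52.4 and 52.5 in hypoxia (log2 change 5.55 ± 0.10, adjusted p 4.29e-06). Its relative Adm2 went from 0.408 and 0.157 FPKM to 25.9 and 28.4 FPKM (4.46 ± 0.13). Both peptide genes were thus near 0 in every normoxic library and well above it in every hypoxic one. Ramp2, which joins with the calcitonin-like receptor to form an adrenomedullin receptor, moved the other way, from 32.8 and 20.6 FPKM to 1.82 and 2.23 FPKM (13.2-fold lower, adjusted p 0.000193). Angiopoietin 1 (Angpt1), a vessel-stabilizing ligand, fell 3.29-fold from 28.3 and 31.2 FPKM to 10.3 and 7.83 FPKM. Angptl4, an inhibitor of lipoprotein lipase, rose 3.31-fold. The lower calls numbered 6 without normoxic library A.

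Enzymes that modify and cross-link collagen rose in the main, and the collagen and matrix genes were mixed. Of 16 tested modifying enzymes 12 rose, 3 fell and 1 did not pass (median change 1.05). P4ha1, a catalytic subunit of collagen prolyl hydroxylase, was at 43.1 and 45.3 FPKM in normoxia and 278 and 273 in hypoxia (6.24-fold, adjusted p 1.43e-05). P4ha2, the second subunit of this kind, was at 19.7 and 20.3 FPKM and at 330.4 and 342 (16.8-fold, adjusted p 4.73e-06). P4ha3, the remaining one, was at 27.02 and 25.1 FPKM and at 10.9 and 10.8 (2.39-fold lower). The 3 subunits therefore did not move together, and P4ha2 went from 31.4% and 31.0% of its sum with P4ha1 to 54.3% and 55.6%. The lysyl hydroxylase genes Plod1 and Plod2 rose 5.62-fold and 4.47-fold. The lysyl oxidase genes, whose products cross-link collagen, divided: Loxl2 rose 5.71-fold and Lox 2.42-fold, and Loxl1 fell 3.59-fold from 114.8 and 88.1 FPKM to 26.5 and 29.9 FPKM. Of 31 tested collagen and matrix genes 8 (25.8%) rose, 16 (51.6%) fell and 7 did not pass (median change -0.29), beside 16.6% higher and 35.2% lower over all genes. After median-of-ratios scaling 10 were higher and 13 lower. Matrix Gla protein (Mgp), an inhibitor of calcification, fell most, from 672 and 583 FPKM to 66.7 and 82.0 FPKM (8.44-fold, adjusted p 4.07e-05). Collagen VI genes fell as well, Col6a2 4.16-fold and Col6a1 3.38-fold. Col12a1, a collagen that binds to fibril surfaces, rose 3.12-fold from 89.3 and 107.2 FPKM to 304.8 and 308 FPKM. The fibril gene Col1a1 had 20.5 and 17.2 FPKM in normoxia and 21.0 and 22.6 in hypoxia and did not pass (adjusted p 0.170). For the matrix genes the 8 higher calls came to 5 without either hypoxic library.

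Genes for histone demethylases that need oxygen rose in part, and genes of the H3K27 methyltransferase complex moved little. Of 26 tested demethylase and TET genes 8 (30.8%) rose, 3 (11.5%) fell and 15 did not pass (median change 0.12). Over all genes 16.6% were higher and 35.2% lower. Kdm3a, an H3K9 demethylase and a known HIF target, was at 15.4 and 16.9 FPKM in normoxia and 83.3 and 79.0 in hypoxia (5.01-fold, adjusted p 3.23e-05). Jmjd6 rose 4.22-fold, from 23.3 and 22.4 FPKM to 97.1 and 95.7 FPKM. Kdm4b rose 2.57-fold and Kdm5b 2.502-fold, and neither showed overlap between the groups. The 2 demethylases that act on H3K27 differed: Kdm6b had 20.2 and 20.7 FPKM in normoxia and 35.9 and 38.5 in hypoxia (1.82-fold higher, adjusted p 0.00071), and Kdm6a had 7.02 and 9.52 FPKM in normoxia and 8.32 and 7.87 in hypoxia (adjusted p 0.941). Of the flavin-dependent enzymes, Kdm1a fell 1.62-fold. Of 12 tested genes of the polycomb complex that writes H3K27me3, 3 (25%) rose, 4 (33.3%) fell and 5 did not pass, a lower share near that of all genes. The median of this list was -0.06 as deposited but 0.09 with median-of-ratios scaling, a change of direction. The catalytic subunit gene Ezh2 had 12.3 and 12.7 FPKM in normoxia and 10.6 and 9.91 in hypoxia (-0.27 ± 0.09, adjusted p 0.0508), and Suz12 had 10.6 and 12.2 FPKM and 14.2 and 11.8 FPKM (adjusted p 0.284). Without either hypoxic library this list had 1 higher and 1 lower call.

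Genes for mitochondrial respiration fell broadly, most of them by less than 1 on the log2 scale. Of 82 tested genes of oxidative phosphorylation 72 (87.8%) fell, 15 of them by at least 1 on the log2 scale, 4 rose and 6 did not pass, with a median change of -0.77. Their share of the summed FPKM was 3.31% and 3.26% in normoxia and 1.85% and 1.87% in hypoxia. After median-of-ratios scaling 67 were lower, with a median of -0.60. Ndufa4, a subunit associated with cytochrome oxidase, was at 534 FPKM in both normoxic libraries and at 118.3 and 116.6 in hypoxia (4.55-fold lower, adjusted p 2.44e-05). Its paralogue Ndufa4l2, a known HIF target that lowers respiration, was at 0.246 and 0.253 FPKM in normoxia and 3.20 and 3.19 in hypoxia (1.75 ± 0.11, adjusted p 0.000137). The paralogue rose in each hypoxic library but made up 2.63% and 2.66% of their sum there. The ATP synthase subunit gene Atp5b fell 2.40-fold from 715 and 655 FPKM to 279 and 293 FPKM, and the succinate dehydrogenase gene Sdhb fell 2.41-fold. The muscle isoform genes Cox6a2 (0.274 and 0.106 FPKM in normoxia, 6.84 and 4.42 in hypoxia) and Cox7a1 (1.17 and 2.70, 6.06 and 8.35) rose. Cox4i2, the hypoxia isoform of cytochrome oxidase subunit IV in lung, was under the filter on levels at 0.0929 to 0.394 FPKM over the 4 libraries. Ndufs5 had 0.249 FPKM in normoxic library A and 80.7 in B, beside 49.0 and 48.7 in hypoxia, and did not pass. Of 30 tested genes of the TCA cycle and mitochondrial control 22 (73.3%) fell, 1 (3.33%) rose and 7 did not pass (median change -0.69). Over all genes 35.2% were lower and 16.6% higher. Idh2, the mitochondrial NADP isocitrate dehydrogenase, fell 4.22-fold from 161 and 148 FPKM to 36.3 and 37.0 FPKM. Citrate synthase (Cs) fell 2.29-fold. The mitochondrial protease gene Lonp1, which degrades damaged and surplus matrix proteins, was the member that rose, 3.00-fold, from 36.6 and 35.4 FPKM to 109.3 and 106.8 FPKM.

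**Figure D4:**
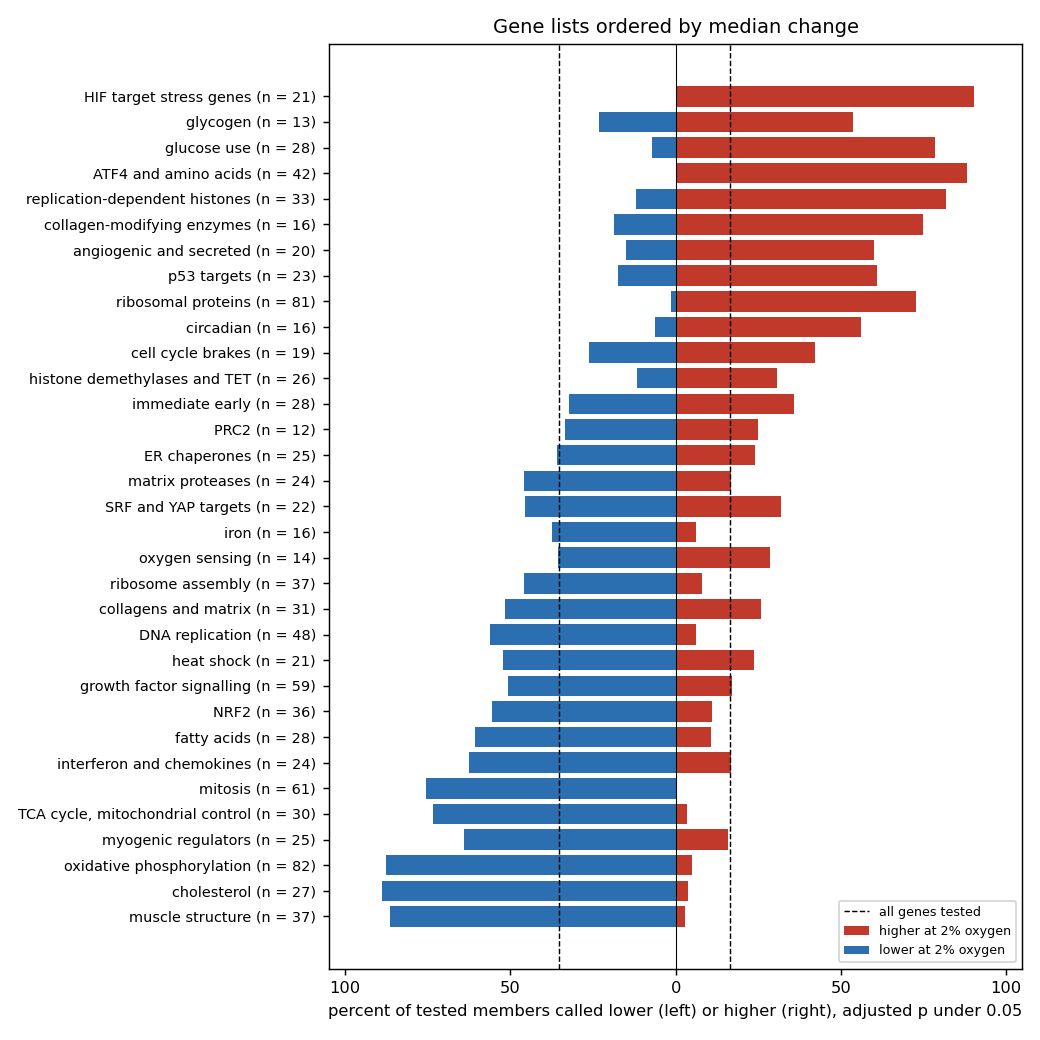
Percent of the tested members of each gene list that were called lower (blue, left) or higher (red, right) at 2% oxygen, lists in order of median change, n giving members tested. Dashed lines mark 35.2% lower and 16.6% higher over all genes, and the bars run from HIF target stress genes (90.5% higher) to muscle structure genes (86.5% lower).

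Amino acid stress genes under the transcription factor ATF4 rose nearly as a group. Of 42 tested members 37 (88.1%) rose, 28 of them by at least 1 on the log2 scale, and none fell, with a median change of 1.31, beside 2.01 for the HIF target stress genes. ATF4 is best known as the effector of kinases that slow translation when amino acids or oxygen run short. Atf4 itself was at 177 and 161 FPKM in normoxia and 426 and 428 in hypoxia (2.52-fold, adjusted p 0.000164). Atf5, a relative of Atf4 tied to mitochondrial stress, was at 25.4 and 22.2 FPKM and at 379.6 and 401.5 (16.4-fold, adjusted p 7.67e-06). The feedback inhibitor gene Trib3 was at 1.75 and 1.66 FPKM and at 64.2 and 64.3 (37.7-fold, adjusted p 4.29e-06). Each of the 3 factors was higher in both hypoxic libraries than in either normoxic one. Ddit3, which encodes the stress factor CHOP, rose 7.01-fold to 239 and 233 FPKM, and the glutathione-degrading enzyme gene Chac1 rose 13.9-fold to 29.9 and 31.2 FPKM. Asparagine synthetase (Asns) rose 5.57-fold. Mitochondrial one-carbon enzymes were among the largest rises, Aldh1l2 at 22.6-fold and Mthfd1l at 6.35-fold. Calls in the chaperone list of the endoplasmic reticulum were mixed instead, with 6 of 25 (24%) higher, 9 (36%) lower and 10 not passing. Over all genes 16.6% were higher and 35.2% lower, so the lower share was near that of all genes. The median of the chaperone list turned from -0.08 as deposited to 0.10 with median-of-ratios scaling. The main chaperone gene Hspa5 had 160.6 and 170.2 FPKM in normoxia and 159 and 154 in hypoxia (adjusted p 0.449), and Hyou1, a chaperone named for low oxygen, fell 2.34-fold from 25.8 and 21.8 FPKM to 9.38 and 10.99 FPKM. Without hypoxic library A the chaperone list had 2 higher and 6 lower calls, and without hypoxic library B 3 and 6.

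Of 36 tested antioxidant genes of the NRF2 response 20 (55.6%) fell, 4 (11.1%) rose and 12 did not pass (median change -0.47), beside 35.2% lower and 16.6% higher over all genes. Upper-quartile scaling gave 8 higher and 18 lower. Glutathione peroxidase 1 (Gpx1) fell 3.26-fold from 275 and 212 FPKM to 74.4 and 75.1 FPKM (adjusted p 0.0003). The NADPH-making enzyme gene G6pdx fell 3.03-fold from 49.0 and 48.3 FPKM to 14.5 and 17.6 FPKM, and the quinone reductase Nqo1 fell 2.28-fold. Heme oxygenase 1 (Hmox1), which degrades heme, had 53.1 and 42.2 FPKM in normoxia and 70.5 and 72.7 in hypoxia (1.503-fold higher, adjusted p 0.00929). It did not pass without hypoxic library B (0.56). The 4 higher calls numbered 2 without that library. Of 16 tested iron genes 6 fell, 1 rose and 9 did not pass (median change -0.18), a lower share (37.5%) near that of all genes. Upper-quartile scaling gave 3 higher and 4 lower. The transferrin receptor gene Tfrc, which takes iron into the cell, rose 2.46-fold from 12.4 and 15.3 FPKM to 36.3 and 31.8 FPKM. The iron transporter gene Slc11a2 fell 3.47-fold to 5.96 and 6.81 FPKM. The 6 lower iron calls came to 3 without either hypoxic library.

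Cholesterol synthesis and its control fell together. Of 27 tested members 24 (88.9%) fell, 19 of them by at least 1 on the log2 scale, 1 rose and 2 did not pass, with a median change of -1.46. Msmo1, a sterol methyl oxidase that uses oxygen, was at 21.0 and 21.3 FPKM in normoxia and at 2.06 and 1.30 in hypoxia (12.6-fold lower). Fdps, which makes farnesyl pyrophosphate, was at 67.3 and 63.2 FPKM and at 6.92 and 6.72 (9.56-fold lower). Both genes were thus low in both hypoxic libraries, the first a step that uses oxygen and the second one that does not. Squalene epoxidase (Sqle) fell 2.05-fold. Srebf2, the master factor of the pathway, fell 4.09-fold from 102.5 and 91.9 FPKM to 22.9 and 24.7 FPKM. The SREBP-retaining proteins divided. Insig1, itself a target of the pathway, fell 6.84-fold from 32.2 and 34.9 FPKM to 4.73 and 5.07 FPKM, and Insig2 was the member that rose, 2.17-fold, from 34.2 and 36.6 FPKM to 77.7 and 76.0 FPKM. Hmgcs1, the synthase at the head of the pathway, was listed at 0 in all 8 RNA libraries and gives no value. Of 28 tested fatty acid genes 17 (60.7%) fell, 3 (10.7%) rose and 8 did not pass (median change -0.51). Over all genes 35.2% were lower and 16.6% higher. After median-of-ratios scaling 14 fatty acid genes were lower and 5 higher (median -0.39), beside 24.2% lower and 24% higher over all genes. The elongase gene Elovl6 fell 14.9-fold from 21.0 and 23.5 FPKM to 1.46 and 1.52 FPKM, and the desaturases Fads2 and Scd1 fell 4.97-fold and 3.72-fold. Hilpda, a lipid droplet protein and known HIF target, rose 9.18-fold from 13.4 and 12.97 FPKM to 117.6 and 124.97 FPKM.

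Muscle identity genes fell. Of 25 tested myogenic regulators 16 (64%) fell, 4 (16%) rose and 5 did not pass (median change -0.73), and of 37 tested muscle structure genes 32 (86.5%) fell, 26 of them by at least 1 on the log2 scale, 1 rose and 4 did not pass (median change -1.52). Over all genes 35.2% were lower and 16.6% higher. The structure list holds 59 genes, and the rest were under the filter on levels. Genes can pass the filter through the normoxic group alone, as Chrng and Chrnd did, which favours falls in such a list. The tested structure genes had a median log2(FPKM + 1) of 3.94 and 3.73 in normoxia and 1.56 and 1.54 in hypoxia. The structural gene that rose, Tnnc1, did not pass without either hypoxic library. Myod1, the factor that commits cells to muscle, was at 138.7 and 108.1 FPKM in normoxia and 25.1 and 26.1 in hypoxia (4.82-fold lower, adjusted p 0.000121). Myf5, the other determination factor, had 19.99 and 19.96 FPKM and 9.89 and 9.55 FPKM (2.05-fold lower). Myogenin (Myog), which starts terminal differentiation, was at 13.3 and 8.83 FPKM and at 0.342 and 0.442 (log2 change -3.09 ± 0.19, adjusted p 0.000139). For each factor both hypoxic libraries lay under both normoxic ones. Pax7, the satellite cell factor, fell 1.71-fold. Id1 and Id3, inhibitors of MyoD, fell as well, 3.09-fold and 3.49-fold. Hey1, a Notch target that represses muscle genes, rose 3.80-fold from 1.83 and 1.48 FPKM to 6.65 and 5.94 FPKM. Among structural genes the fetal acetylcholine receptor subunits fell most. Chrng was at 30.3 and 24.7 FPKM in normoxia and at 0 and 0.0597 in hypoxia (-4.79 ± 0.13), and Chrnd was at 20.7 and 19.6 FPKM and at 0.315 and 0.297 (-4.02 ± 0.10). Fast alpha-actinin (Actn3) fell 14.6-fold, slow troponin T (Tnnt1) 11.9-fold and M-cadherin (Cdh15) 5.90-fold. Desmin (Des), the muscle intermediate filament, fell 3.33-fold from 228 and 194 FPKM to 60.3 and 66.4 FPKM. The myotube marker sums given above moved in the same direction, but they share genes with these lists, Myog among them, so this is not a separate observation.

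Cell cycle genes fell by modest amounts. Of 61 tested mitosis genes 46 (75.4%) fell, 10 by at least 1 on the log2 scale, and none rose (median change -0.66), and of 48 tested replication genes 27 fell, 3 rose and 18 did not pass (median change -0.33). After median-of-ratios scaling 38 mitosis and 21 replication genes were lower. Cyclin B1 (Ccnb1), which drives entry into mitosis, was at 38.9 and 42.5 FPKM in normoxia and 17.7 and 15.7 in hypoxia (2.44-fold lower, adjusted p 0.000321). The mitotic kinase gene Plk1 was at 23.6 and 20.2 FPKM and at 7.63 and 9.18 (2.61-fold lower). Neither gene showed overlap between the groups. The helicase subunit gene Mcm5 had 11.6 and 9.82 FPKM and 6.76 and 6.19 FPKM (1.65-fold lower, adjusted p 0.00529), and Mki67 (1.66-fold lower, adjusted p 0.0307) did not pass after either other scaling, without normoxic library B (-0.44) or without hypoxic library B (-0.48). The repressor E2f8 fell 5.05-fold from 12.97 and 13.1 FPKM to 2.58 and 2.57 FPKM, and thymidine kinase (Tk1) fell 3.27-fold. Cell cycle brakes were mixed, with 8 of 19 (42.1%) higher and 5 (26.3%) lower, beside 16.6% and 35.2% over all genes. Cdkn1a, the p21 inhibitor, rose 4.04-fold from 64.4 and 55.3 FPKM to 242 and 241 FPKM, and Ccng2, a cyclin linked to arrest, rose 2.95-fold. Cdkn1c, the p57 inhibitor, fell 3.84-fold. In a fit over all 8 RNA libraries, which takes in the wide spread between the hypoxic differentiation replicates, the same falls gave 1 mitosis call and 3 replication calls in the lower direction.

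**Figure D5:**
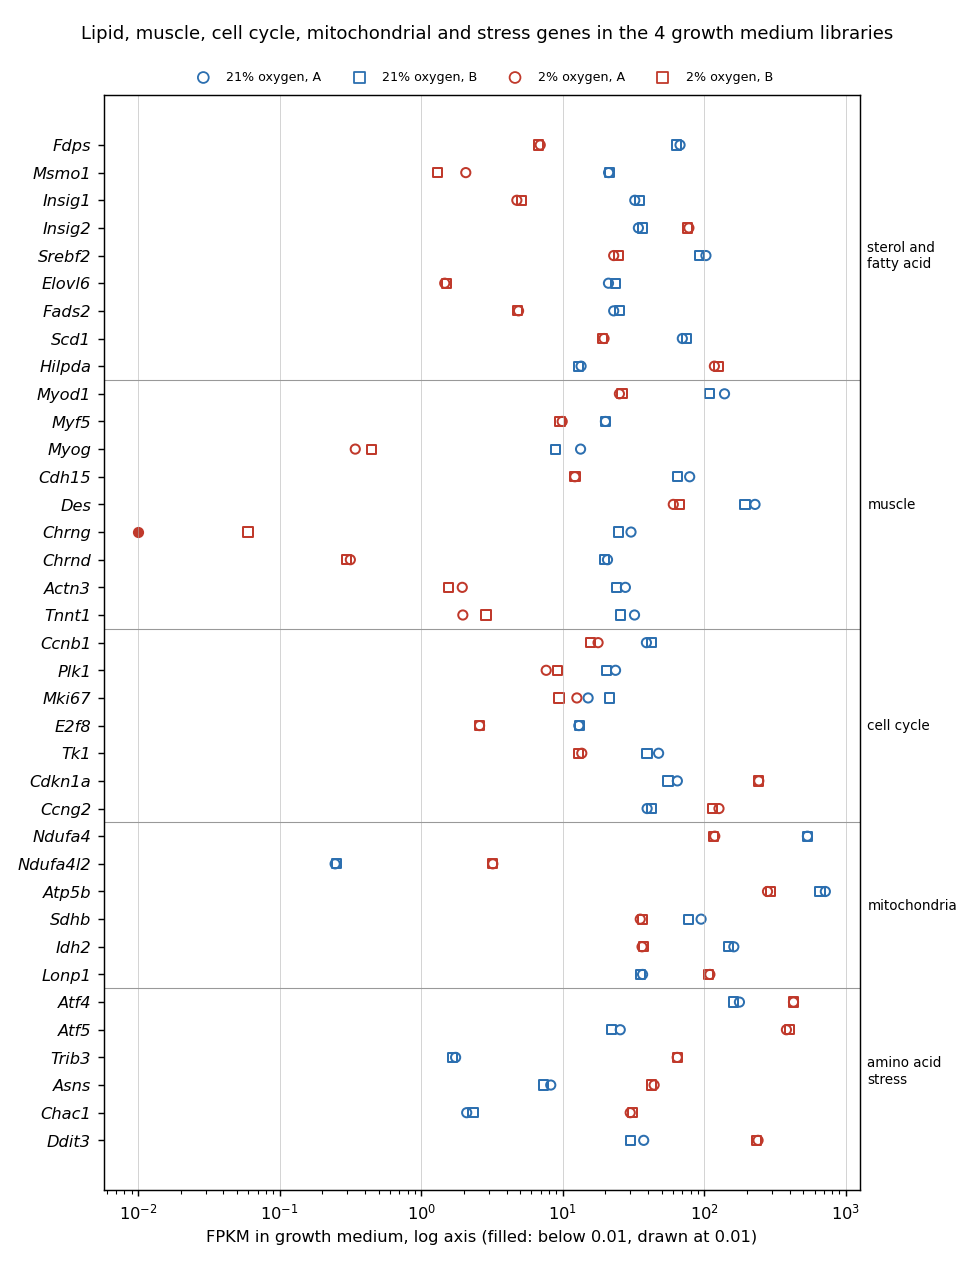
FPKM (log axis) of lipid, muscle, cell cycle, mitochondrial and amino acid stress genes in each of the 4 growth medium libraries, circles for A and squares for B, blue for 21% and red for 2% oxygen. Red lies left of blue for most sterol, muscle, cell cycle and respiratory genes, as for Fdps at 6.92 and 6.72 against 67.3 and 63.2, and right of blue for the stress genes, as for Trib3 at 64.2 and 64.3 against 1.75 and 1.66.

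Targets of p53 rose more often than they fell, at 14 of 23 higher, 4 lower and 5 not passing (median change 0.63). Gdf15, a secreted stress cytokine that ATF4 also drives, rose 10.1-fold from 3.32 and 3.05 FPKM to 32.3 and 31.8 FPKM. Mdm2, the ligase that turns p53 over, rose 2.91-fold, and the cell death gene Bbc3 rose 3.02-fold. Trp53 itself fell 2.24-fold from 89.0 and 72.8 FPKM to 34.9 and 37.2 FPKM. Of 55 listed replication-dependent histone genes 33 passed the filter on levels. Of these 27 (81.8%) were higher and 4 (12.1%) lower (median change 1.19), beside 16.6% and 35.2% over all genes. The tested members had a median log2(FPKM + 1) of 1.17 and 1.07 in normoxia, near the filter. Genes can pass the filter through the hypoxic group alone, which favours rises in such a list. These genes are short, alike in sequence and mostly without a poly(A) tail, so the division of reads among copies is uncertain. Hist1h2bc, a gene also known to give polyadenylated RNA, was at 10.9 and 9.47 FPKM in normoxia and 88.7 and 87.1 in hypoxia (8.63-fold, adjusted p 1.71e-05).

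Ribosomal protein genes took a larger share of the signal in hypoxia, at 27.03% and 27.7% of the summed FPKM beside 21.3% and 20.7% in normoxia. Of 81 tested members 59 (72.8%) were higher, 1 of them by at least 1 on the log2 scale, 1 was lower and 21 did not pass (median change 0.45, and 0.62 after median-of-ratios scaling). Most of these calls were lost without either hypoxic library. Such a fit takes its spread from the normoxic pair alone, so the loss does not show what either hypoxic library holds. Fau, which encodes a ribosomal protein fused to a ubiquitin-like one, rose 1.93-fold from 1786 and 1428 FPKM to 2992 and 3210 FPKM (adjusted p 0.00239). Rpl22 rose 1.86-fold to 309 and 310.0 FPKM, and its paralogue Rpl22l1 fell 2.36-fold from 243 and 252 FPKM to 117.5 and 92.9 FPKM. Some members differed widely within normoxia, and for these a value near 0 may be a failed estimate rather than a low level. Many of these genes have near-identical copies, so the division of reads is uncertain. Rpl26 had 0.00335 FPKM in normoxic library A and 233 in B, beside 862 and 818 in hypoxia, and did not pass (adjusted p 0.0791). Rps27 had 4.15 and 91.9 FPKM in normoxia and 585 and 401 in hypoxia (adjusted p 0.0254). Genes that assemble ribosomes did not follow the ribosomal proteins: of 37 tested members 17 (45.9%) fell, 3 (8.11%) rose and 17 did not pass (median change -0.29). Over all genes 35.2% were lower and 16.6% higher. After median-of-ratios scaling 12 assembly genes were lower and 5 higher (median -0.16), beside 24.2% lower and 24% higher over all genes. Bop1, a factor of large subunit assembly, fell 2.12-fold, and nucleophosmin (Npm1) rose 1.603-fold from 344 and 360 FPKM to 587 and 542 FPKM. The 17 lower assembly calls came to 9 without either hypoxic library, and the 3 higher calls to 1 without hypoxic library B.

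Growth factor, chemokine and protease genes rose about as often as all genes did (16.6%), and 35.2% of all genes were lower. Of 59 tested genes of growth factor, Notch, Wnt and TGF-beta signalling and imprinted growth genes 30 (50.8%) fell, 10 (16.9%) rose and 19 did not pass (median change -0.34). The higher calls numbered 5 and the lower calls 20 without hypoxic library B. Fgfr4, the growth factor receptor typical of myoblasts, fell 16.6-fold from 63.2 and 50.6 FPKM to 3.26 and 3.61 FPKM. The Notch ligand Dll1 went from 11.4 and 10.5 FPKM to 0.735 and 0.715 FPKM (-2.79 ± 0.10). Tgfb2 fell 5.75-fold, Sfrp2, a Wnt antagonist, 6.85-fold and Igfbp3 3.97-fold. Gremlin 1 (Grem1), an antagonist of bone morphogenetic proteins, rose 4.14-fold from 134 and 168 FPKM to 626 and 625 FPKM. Of 24 tested interferon and chemokine genes 15 (62.5%) fell, 4 (16.7%) rose and 5 did not pass (median change -0.65). Cxcl5, a neutrophil attractant, fell 7.20-fold from 480 and 465 FPKM to 70.3 and 60.9 FPKM, and the monocyte attractant Ccl2 fell 4.996-fold. The 4 higher calls of this list came to 2 without either hypoxic library. Of 24 tested matrix proteases and inhibitors 11 (45.8%) fell and 4 (16.7%) rose, among them Mmp2 and Mmp14, 2.45-fold and 2.33-fold lower, and the inhibitor Timp3, 2.43-fold higher. The 4 higher calls came to 2 without hypoxic library A.

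Transcription factor programmes outside the HIF and ATF4 sets divided. Over all genes 16.6% were higher and 35.2% lower. Of 28 tested immediate early genes 10 (35.7%) rose, 9 (32.1%) fell and 9 did not pass (median change 0.02), a lower share near that of all genes. Ier3, a survival gene, rose 5.56-fold and Klf4, a growth-restraining factor, rose 4.80-fold from 10.4 and 10.3 FPKM to 48.9 and 50.5 FPKM. Within AP-1, Fosl1 and Fosl2 rose 2.92-fold and 2.67-fold and Jun fell 2.02-fold. The feedback genes of growth factor signalling Spry2, Dusp6 and Etv4 fell 2.07-fold, 2.40-fold and 3.56-fold. Of 16 tested clock genes 9 (56.25%) rose, 1 (6.25%) fell and 6 did not pass (median change 0.40). Ciart, a repressor within the clock, went from 1.15 and 0.604 FPKM to 30.0 and 26.8 FPKM (3.98 ± 0.16, adjusted p 3.43e-05). Per2 rose 2.70-fold and Dbp 2.69-fold, while the activator genes Arntl and Clock did not pass. Of 22 tested SRF and YAP targets 7 (31.8%) rose and 10 (45.5%) fell, with smooth muscle actin (Acta2) 4.11-fold lower and Ctgf 2.93-fold higher. In the fit over all 8 RNA libraries 3 were higher and 4 lower, and Ctgf did not pass. Heat shock genes had 5 of 21 (23.8%) higher and 11 (52.4%) lower. The small heat shock protein genes Cryab and Hspb1 fell 2.68-fold and 2.53-fold, and the mitochondrial chaperone gene Hspa9 rose 2.19-fold. Without hypoxic library A the SRF and YAP list had 6 lower calls and the heat shock list 7, with 2 heat shock genes higher. Without hypoxic library B the heat shock list had 5 lower calls.

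Several of the largest changes belonged to genes outside these programmes. On the log2(FPKM + 1) scale the largest rise of the genes named here was that of 2610528A11Rik, for which RefSeq gives the synonym Gpr15l, a secreted ligand of the receptor GPR15. It was at 13.5 and 13.2 FPKM in normoxia and 756 and 855 in hypoxia (60.3-fold, log2 change 5.81 ± 0.09, adjusted p 2.77e-06). Aire, a transcription factor known for displaying tissue antigens in the thymus, was at 0.0427 and 0.264 FPKM and at 56.7 and 53.8 (5.61 ± 0.12, adjusted p 6.93e-06). The receptor gene Gpr35 was at 0.292 and 0.368 FPKM and at 35.4 and 36.9 (4.80 ± 0.10, adjusted p 5.17e-06). The rule that named these genes required no overlap between the groups, so the agreement of the hypoxic libraries was fixed by the choice. Aire and Gpr35 started from levels near 0 and passed the filter on levels through the hypoxic group alone. The order depends on the pseudocount, since with 0.1 in place of 1 Aire (7.92) and Adm (7.79) rose more than 2610528A11Rik (5.90). Acetylcholinesterase (Ache), which ends signalling at the nerve-muscle junction, rose while the receptor subunits above fell, from 0.278 and 0.430 FPKM to 27.8 and 26.6 FPKM. Car6, a secreted carbonic anhydrase, went from 0.107 and 0.0823 FPKM to 18.5 and 18.9 FPKM. In the same enzyme family Car3, a cytosolic form of muscle and fat, had the largest fall of the genes named here on this scale, from 321 and 299 FPKM to 1.72 and 2.01 FPKM (166-fold, -6.76 ± 0.09, adjusted p 2.45e-06). The imprinted gene Mest fell by a similar amount, and by more as a ratio, from 212 and 204 FPKM to 1.19 and 1.11 FPKM (181-fold, -6.61 ± 0.08, adjusted p 2.13e-06). With a pseudocount of 0.1 Chrng (-7.76) and Mest (-7.38) fell more than Car3 (-7.31). The adhesion gene Vcam1 fell 14.6-fold, the growth factor gene pleiotrophin (Ptn) 9.57-fold and the secreted protein gene Islr 9.73-fold. Lix1 fell as well, from 16.6 and 15.9 FPKM to 0.952 and 0.902 FPKM. Pisd-ps1, a pseudogene named by the same rule, had 0.0674 and 24.01 FPKM in normoxia and 74.8 and 110.9 in hypoxia, and its call (adjusted p 0.0426) was lost without either hypoxic library.

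Whether the response differed in differentiation medium was tested with an interaction term over all 8 RNA libraries for 24 genes chosen for this purpose. Over all 12389 genes of that fit 54.1% passed, 35.4% with a more positive and 18.7% with a more negative change in differentiation medium. Of the 22 key genes tested 11 passed, 9 of them less positive or more negative in differentiation medium and 2 more positive. Vegfa was already at 332 and 310 FPKM in normoxic differentiation medium and had 430 and 310 FPKM in hypoxic differentiation medium, so its rise was smaller there by 2.55 on the log2 scale (adjusted p 0.000145). Egln3 likewise stood at 214 and 181 FPKM in normoxic differentiation medium and at 420 and 333 in hypoxic, and the difference was -2.33 (adjusted p 0.000125). For Slc2a1, Pdk1, Ankrd37, Egln1, P4ha1 and Kdm3a the difference did not pass. These differences ran from -0.22 ± 0.27 SE for Ankrd37 to 0.38 ± 0.17 SE for Slc2a1. Leaving out a hypoxic differentiation library leaves 1 in that group, which is then assumed to vary like the others. Without library A Egln1 (-0.38) and P4ha1 (-0.39) passed, and without library B Slc2a1 (0.51) passed. Cell cycle genes Mki67, Ccnb1 and Mcm5 did not pass either, and there the hypoxic differentiation libraries differed widely, with Mki67 at 3.46 FPKM in A and 23.6 in B. Without that library A the differences were 3.18 for Mki67, 2.42 for Ccnb1 and 3.34 for Mcm5, and all 3 passed. Without library B they were 0.72, 0.10 and 1.00, and Mcm5 alone passed.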

How the data were processed

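RNA levels were taken from the gene table deposited by the authors, whose values are FPKM, a length- and depth-scaled unit and not counts. Reads were aligned with STAR 2.5.1b and FPKM came from Cufflinks 2.2.1 on mm9, per the submitters' processing notes. The annotation, strand setting and scaling options are not given in the sources used here. Genes with a mean of at least 1 FPKM in either growth medium group were tested on log2(FPKM + 1), a scale computed here, with limma 3.58.1 (R 4.3.3) and a variance trend. The 4 growth medium libraries were fitted with 2 residual degrees of freedom, with Benjamini-Hochberg adjustment over all 11728 genes and a threshold of 0.05. The difference between media was an interaction term over the 8 RNA libraries. The fit was tested on simulated data. Besides 24 key genes, the text could name the 15 largest rises and 15 largest falls (at least 10 FPKM in the higher group, no overlap between groups, no small RNA symbols). In each gene list it could name up to 8 members with the largest change at 5 FPKM or more, and members needed to describe isoforms. The members and gene lists were chosen with earlier results of these data known. Promoter windows came from RefSeq (GRCm38.p6). Alternatives varied the libraries, scaling, pseudocount, filter, size of change and replicate block. The 16 chromatin libraries were not analysed here. Some members of the gene lists are counted in their lists but not reported here by name.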

Additional observations from a re-analysis of the deposited data

Results flagged for a closer look

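For 11 of the 22 key genes tested, the response to hypoxia differed between the media by the interaction term (limma, adjusted p under 0.05), where 54.1% of all genes passed. The values are the log2 response in differentiation medium minus that in growth medium. The growth medium rise was larger for Vegfa (-2.55, adjusted p 0.000145), Egln3 (-2.33, adjusted p 0.000125), Adm (-1.74, adjusted p 0.000274), Bnip3 (-1.03, adjusted p 0.00968) and Car9 (-0.73, adjusted p 0.0486). For Ldha the difference was 0.67 (adjusted p 0.0158), and for Hmox1 it was 1.31 (adjusted p 0.00406). The muscle factors had more negative responses in differentiation medium, Myog by -6.20 (adjusted p 5.18e-05), Myod1 by -1.92 (adjusted p 0.00259) and Myf5 by -0.73 (adjusted p 0.00168). Myog started at 2576 and 2642 FPKM in normoxic differentiation medium and at 13.3 and 8.83 in normoxic growth medium. It stood at 4.49 and 2.14 FPKM in hypoxic differentiation medium and at 0.342 and 0.442 in hypoxic growth medium. From its lower start the fall in growth medium had less room on this scale. Col1a1 differed by -0.46 (adjusted p 0.0442). The Ldha difference did not pass after median-of-ratios scaling (0.34), without normoxic growth library A (0.60), without normoxic differentiation library B (0.55) or without hypoxic growth library A (0.64). Those of Car9 and Col1a1 did not pass with the replicate block or without any of several single libraries, with values of -0.52 to -0.83 for Car9 and -0.33 to -0.54 for Col1a1.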

How the results depend on the processing

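The number of genes called with hypoxia was 6079 and ranged from 3695 to 6839 when 1 library was left out, with 1191 to 2259 higher and 2504 to 4580 lower. The low ends came from leaving out hypoxic library A, and leaving out hypoxic library B gave 3741 genes, 1230 higher and 2511 lower. Requiring a log2 change of 1 left 1304 genes, 544 higher and 760 lower, and with a pseudocount of 5 this rule left 618, 286 higher and 332 lower; a larger pseudocount shrinks the changes of low genes by construction. Deviations of same-lettered libraries showed no shared direction (r = -0.10), which cannot settle whether A and B were prepared as pairs. The replicate block gave 5229 calls. The crossed pairing, chosen after seeing the data, gave 6979. Of 281 named genes that were called, 235 kept their call and direction under all 12 alternatives and 46 lost the call in at least 1, among them 29 in the fit over 8 libraries. Ndufs5, which did not pass, reversed to -0.71 without normoxic library A, in which it was near 0, and stood at 5.32 without normoxic library B. Leaving out 1 library leaves 1 in its group, so the spread then comes from the pair of the other group. Counts from such fits, here and in the gene lists, therefore also depend on that pair. With 2 libraries per group and unknown depth, small changes and genes near 1 FPKM are the least certain.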

Other observations

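Several genes outside the lists also changed, most of them abundant and all chosen here after their values were seen. The metallothionein genes, which bind zinc and copper, rose, Mt1 from 1757 and 1634 FPKM in normoxic libraries A and B to 5168 and 5250 in hypoxic libraries A and B (3.07-fold, limma adjusted p 0.000156). Mt2 rose from 1389 and 1426 FPKM to 5293 and 5209 FPKM (3.73-fold). Basigin (Bsg), the partner that carries lactate transporters to the cell surface, rose from 400.3 and 392.3 FPKM to 2369 and 2428 FPKM (6.05-fold), beside the rise of the exporter Slc16a3. Nos2, the inducible nitric oxide synthase, rose from 1.34 and 1.24 FPKM to 37.1 and 37.5 FPKM. The calcium-binding gene S100a4 fell from 6533 and 6371 FPKM to 3123 and 3218 FPKM (2.04-fold), and osteopontin (Spp1) fell 2.52-fold. Osteoglycin (Ogn), a small matrix proteoglycan, fell 6.75-fold.

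Of the noncoding host genes of small nucleolar RNAs, 4 that rose are given here. Snhg12 was at 44.0 and 46.5 FPKM in normoxia and 362 and 366 in hypoxia (8.05-fold, adjusted p 9.39e-06), Snhg1 rose 2.39-fold, Gas5 2.13-fold and Snhg8 1.84-fold. These 4 genes were picked after their values were seen, and no list of host genes was tested.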
